A study of Mus musculus with 60 samples.

Results

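The comparison described here is the effect of estrogen on gene expression in the intact mouse mammary gland, averaged over glands with and without progesterone. Its members were chosen by their titles: every array of an intact gland was used, which gave 51 of the 60 arrays and 17 of the 20 animals. The arrays of epithelium-free fat pads, from 3 animals, were left out of the main fit and were fitted only in an alternative with all 5 groups. All animals were ovariectomized and received daily intraperitoneal injections for 4 days. The vehicle group (V, 4 animals) received 100 µl sesame oil, the estrogen group (E, 4 animals) 2 µg 17-beta-estrogen, the progesterone group (P, 4 animals) 1 mg progesterone, and the E+P group (5 animals) both hormones at these doses. Estrogen was therefore present in 9 animals (E and E+P) and absent in 8 (V and P). The description field names progesterone alone for E+P and vehicle arrays, and the groups were taken from the titles and treatment protocols. The labels state neither strain nor age, and lymph nodes had been removed from the glands. The RNA of each animal was hybridised to 3 types of Affymetrix array (A, B and C), and all 36701 probe sets that are not controls were considered.

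Estrogen acts through the nuclear receptor Esr1, which binds DNA and recruits coactivators to its target genes. In the mammary gland the receptor sits in a part of the luminal cells and in stromal cells, and estrogen drives growth of the ducts, largely through paracrine signals that reach neighbouring cells without the receptor. Estrogen also induces the progesterone receptor, so the responses to both hormones are linked in this tissue.

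Values were the deposited signal intensities, scaled per array. A probe set was tested when enough animals lay above the median signal of its array type, and values under the 25th percentile were set to that floor (13.9, 28.8 and 19.8 signal units on types A, B and C). A probe set was called when its adjusted p from limma was under 0.05, with Benjamini-Hochberg adjustment over all 21506 tested probe sets. A log2 difference of 1 is a doubling, and each difference given below is with estrogen minus without, as the mean of E minus V and E+P minus P, unless another contrast is named.

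With estrogen, 14 tested genes of mitosis and DNA replication rose, as did the luminal epithelial genes Krt19, Krt8, Krt7, Cd24a and Cldn3, and 5 endothelial genes, among them Cd93 and Cdh5, fell. Of the 21506 tested probe sets, 178 were called (0.828%), 94 higher with estrogen (0.437%) and 84 lower (0.391%). The called rises were larger, with a median log2 difference of 0.84, against -0.61 for the falls. At least 2-fold were 37 rises but 12 falls. These are sizes of probe sets past the call, which favours large differences, and the contrast was not tested. Falls lay in more abundant transcripts: the median log2 level was 8.94 among falls, 7.74 among rises and 7.26 over all tested probe sets. Counted by gene, with 1 probe set standing for each of 11761 genes, 68 genes rose and 58 fell. Over these genes 126 were thus called (1.07%) and 1640 had an unadjusted p under 0.05 (13.9%), the shares against which the counts of list members below can be read.

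Of the tested mitosis genes 9 of 32 were called, and of the tested DNA replication genes 5 of 28, all higher. The median log2 difference was 0.63 over the mitosis list and 0.51 over the replication list, against 0.01 over all 11761 genes. Of the mitosis genes 30 had a positive difference, and of the replication genes 25 did. The promoters of 4 of them are shown because they hold, near the transcription start, copies of the CCAAT box and, except for Mcm5, of TTTGAA, elements known from cell cycle promoters. They were picked after the matches were seen. Each is the RefSeq stretch (GRCm38.p6) from 250 bases before to 50 bases after the start, written 5′ to 3′ on the strand of the gene, with every match to CCAAT or TTTGAA on either strand in capitals (the reverse of CCAAT reads ATTGG).
Cdk1, chr10:69352863-69353162, minus strand: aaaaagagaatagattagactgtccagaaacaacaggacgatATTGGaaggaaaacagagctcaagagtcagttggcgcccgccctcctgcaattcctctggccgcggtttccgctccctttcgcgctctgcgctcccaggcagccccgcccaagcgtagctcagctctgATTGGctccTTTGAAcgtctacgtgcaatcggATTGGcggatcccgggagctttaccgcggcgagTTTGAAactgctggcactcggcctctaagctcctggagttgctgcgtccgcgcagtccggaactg
Ccnb2, chr9:70421505-70421804, minus strand: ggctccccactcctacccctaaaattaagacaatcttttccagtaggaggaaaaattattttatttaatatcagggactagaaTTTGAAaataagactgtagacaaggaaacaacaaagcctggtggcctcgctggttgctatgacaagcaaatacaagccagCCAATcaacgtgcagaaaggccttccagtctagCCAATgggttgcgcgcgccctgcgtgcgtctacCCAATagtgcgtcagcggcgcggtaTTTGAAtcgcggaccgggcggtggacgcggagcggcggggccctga
Mki67, chr7:135716330-135716629, minus strand: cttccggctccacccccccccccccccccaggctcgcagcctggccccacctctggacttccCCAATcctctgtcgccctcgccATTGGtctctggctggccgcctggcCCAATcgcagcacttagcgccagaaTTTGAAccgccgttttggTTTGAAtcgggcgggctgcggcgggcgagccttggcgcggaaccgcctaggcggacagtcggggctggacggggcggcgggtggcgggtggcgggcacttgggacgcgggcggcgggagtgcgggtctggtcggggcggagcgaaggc
Mcm5, chr8:75109259-75109558, plus strand: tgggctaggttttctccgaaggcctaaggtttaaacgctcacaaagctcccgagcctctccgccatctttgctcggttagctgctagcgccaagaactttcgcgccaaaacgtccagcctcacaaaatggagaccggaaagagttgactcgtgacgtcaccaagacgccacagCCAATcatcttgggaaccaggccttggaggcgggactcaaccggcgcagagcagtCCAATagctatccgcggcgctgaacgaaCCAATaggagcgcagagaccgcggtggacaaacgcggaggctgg

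Of the 14 called mitosis and replication genes, 12 had a promoter in the RefSeq table. CCAAT was found in 10 of these 12 (83.3%) and in 37.9% of the 27025 promoters of the table, taking the first start listed for each gene, or 38.1% of the 9380 of tested genes. TTTGAA occurred in 5 of the 12 (41.7%), against 18.1% of all promoters and 12.1% of those of tested genes. Over all called rises with a promoter, CCAAT stood in 28 of 53 (52.8%), and over all called falls in 9 of 38 (23.7%). The full palindrome bound by the estrogen receptor, GGTCANNNTGACC, was in none of the 9380 promoters of tested genes, called ones included, and in 18 of the 27025 (0.0666%). Its single arm TGACC on either strand, which the full palindrome contains, stood in 17 of 53 promoters of rises (32.1%) and in 14 of 38 of falls (36.8%). It stood in 37.3% of the promoters of tested genes and in 40.2% of all. The element shared by the progesterone and glucocorticoid receptors, GNACANNNTGTNC, was in none of the promoters of called genes. It was in 0.299% of those of tested genes and in 0.463% of all, so none among the called is near the background. These counts describe the letters of the window and were not tested.

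Pbk, a kinase of dividing cells, had scaled signals of 28.8 to 69.5 (median 29.2) in the 8 animals without estrogen and of 117 to 442 (median 167) in the 9 with it. Every animal with estrogen lay above every animal without (log2 difference 2.34 ± 0.23, SE, adjusted p = 2.55e-05). As 4 of the latter were at the floor, the size depends on where the floor is set. Such complete separation was seen in 27 of all tested probe sets (0.126%), of which 23 were called.

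Uhrf1, which recognises newly replicated DNA and guides maintenance of its methylation, ranged from 24 to 70.2 (median 34.1) without estrogen and from 90.7 to 206 (median 137) with it. The ranges did not overlap, and the log2 difference was 1.85 ± 0.17 (adjusted p = 2.55e-05). A dimmer probe set of Uhrf1 gave 0.56 (adjusted p = 0.669). Uhrf1 and Pbk kept their calls under all 22 other settings and without any single animal.

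Mki67, the antigen used to score proliferating cells, gave signals of 34.4 to 86.1 (median 51.9) without estrogen and 92 to 410 (median 130) with it. The groups did not overlap (log2 difference 1.56 ± 0.26, adjusted p = 0.0141). The highest value was that of E+P 2, an animal that also had the highest mitosis score.

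Cdk1, the kinase that drives entry into mitosis, was measured at 13.9 to 90.2 (median 44.7) without estrogen and 55.1 to 315 (median 140) with it. The groups overlapped through E 1, the lowest animal with estrogen. The log2 difference was 1.74 ± 0.32 (adjusted p = 0.0181), and it was 1.74 at each level of progesterone.

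Rrm2 and Tk1 serve the synthesis of DNA precursors. The ribonucleotide reductase subunit Rrm2 went from a median of 36.7 (13.9 to 52.7) to 90.7 (40.5 to 225), a log2 difference of 1.79 ± 0.34 (adjusted p = 0.0205). Thymidine kinase Tk1 had a median of 36.8 (27.1 to 154) without estrogen and 142 (29.2 to 309) with it (log2 difference 1.66 ± 0.35, adjusted p = 0.0321). Both overlapped between the groups, Tk1 the more so, since P 2 was high without estrogen and E 1 low with it. The brightest of the other 2 probe sets of Tk1 gave 0.67 (adjusted p = 0.175), and the dimmer gave 0.035. Tk1 kept its call in 6 of the 17 fits without 1 animal.

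Mcm5, a subunit of the replicative helicase, rose by 1.24 ± 0.24 (adjusted p = 0.0226), from a median of 95.4 to 197, but another, brighter probe set of Mcm5 gave 0.22 (adjusted p = 0.453). The large reductase subunit Rrm1 had a log2 difference of 1.58 ± 0.35 (adjusted p = 0.0404). Another, brighter probe set of Rrm1 gave -0.12 (adjusted p = 0.939). Rrm1 kept its call in 4 of the 17 fits without 1 animal.

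The other called mitosis genes were Ccnb2, a B-type cyclin (0.75), Stmn1, which destabilises microtubules (1.18), Kif23, a motor of the dividing midzone (1.21), Bub1b of the spindle checkpoint (1.35), Cks2, a partner of Cdk1 (1.11), and Birc5 of the chromosomal passenger complex (1.19). Adjusted p ranged from 0.0171 for Ccnb2 to 0.0378 for Birc5. The other tested probe set of Kif23 had the opposite sign and was not called. Bub1b did not overlap between the groups, with 28.8 to 33.6 without estrogen and 39.1 to 136 with it, although most animals without estrogen were at the floor. Members that did not pass included Top2a (1.32, adjusted p = 0.118), Aurkb (1.24, adjusted p = 0.124), Pcna (0.37, adjusted p = 0.405) and Plk1 (-0.19, adjusted p = 0.79).

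**Figure D1:**
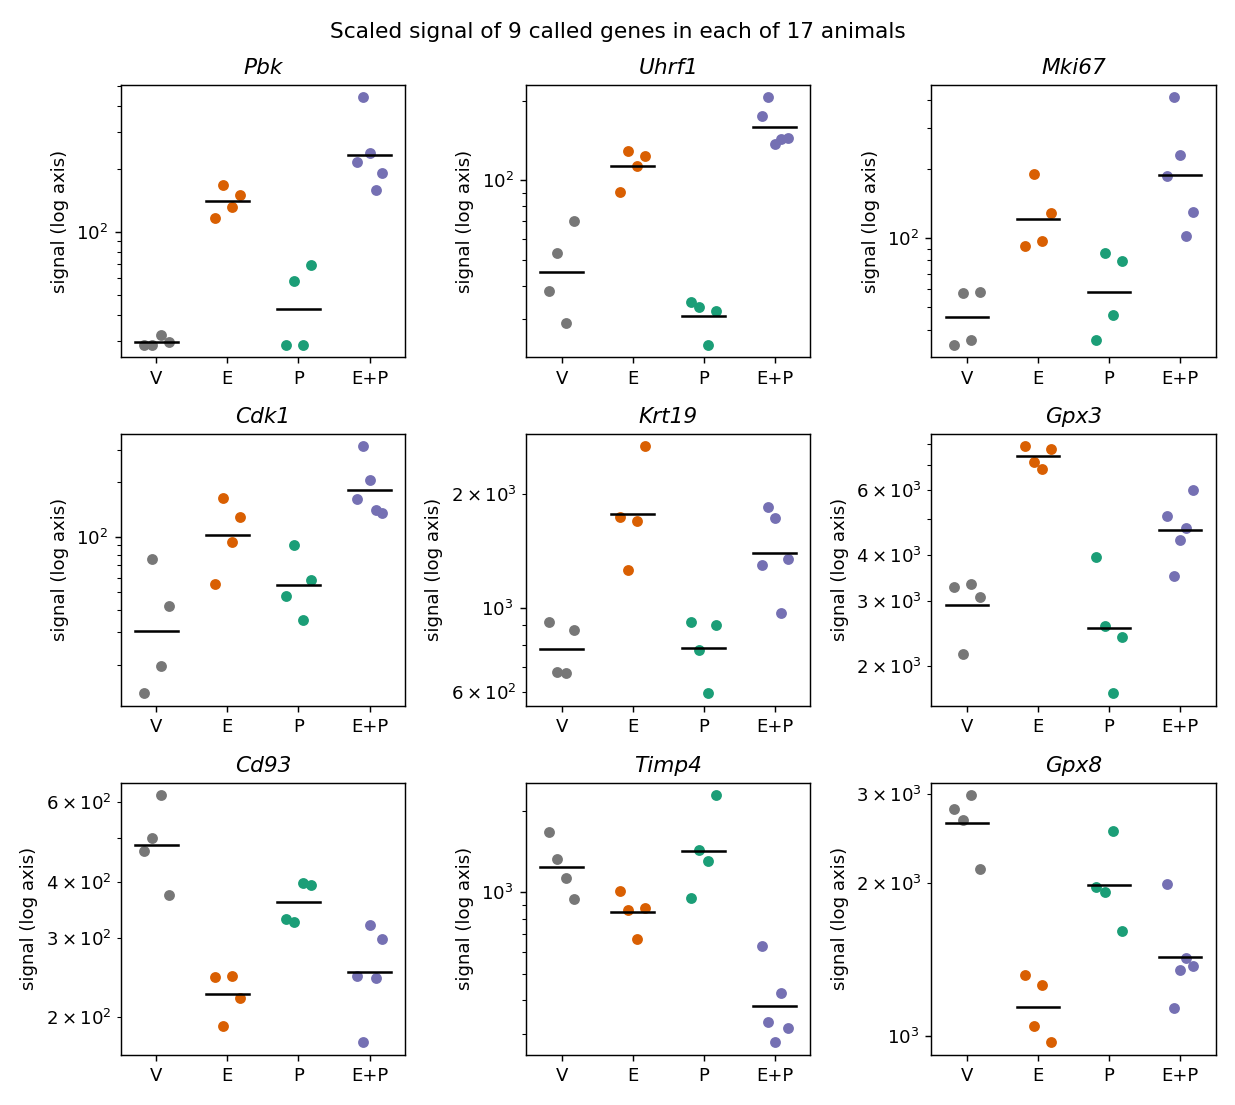
Scaled signal (log axis) of 9 called genes in each animal, grouped as V (vehicle), E (estrogen), P (progesterone) and E+P, with a bar at the mean of the log2 values. Pbk, Uhrf1, Mki67 and Krt19 were higher in all 9 animals with estrogen than in all 8 without, and Cd93 was lower in all 9.

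Of 25 tested genes of the luminal epithelium, the cell layer that lines the ducts, 5 were called, all higher, with a list median of 0.46. Krt19, a keratin of simple epithelia, had signals of 594 to 916 (median 824) without estrogen and 967 to 2680 (median 1696) with it. The groups did not overlap, and the log2 difference was 1.02 ± 0.15 (adjusted p = 0.00602). Krt8, its partner in the same filaments, ran from 585 to 1009 (median 745) without and 848 to 1820 (median 1366) with estrogen, with some overlap (0.80 ± 0.15, adjusted p = 0.0193).

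Cd24a, a surface glycoprotein used to sort luminal cells, rose by 1.02 ± 0.16 (adjusted p = 0.008), from a median of 657 to 1464. Krt7, another simple keratin, had a log2 difference of 0.71 and the tight junction protein Cldn3 of 0.80, with adjusted p of 0.0293 and 0.0462. Krt7 kept its call in 8 of the 17 fits without 1 animal. Krt18, the other partner of Krt8, had 0.48 (adjusted p = 0.0707) and did not pass. Epcam, a pan-epithelial adhesion molecule, and Foxa1, a cofactor of the estrogen receptor, had differences of -0.051 and 0.063 (adjusted p = 0.916 and 0.923).

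The median of the luminal list was 0.094 for E minus V and 0.79 for E+P minus P, and the difference between these medians was not tested. Krt19 (1.19 and 0.84), Krt8 (0.85 and 0.74) and Cd24a (1.04 and 1.01) were not larger with progesterone. The other called members, Krt7 (0.3 and 1.12) and Cldn3 (0.6 and 0.99), were larger with it, but neither was called in the interaction. Among the members, Elf3, an epithelial transcription factor, had -0.96 without progesterone and 2.26 with it, and the tight junction gene Cldn4 had -0.64 and 1.57. Those 2 genes passed the test of the interaction (adjusted p = 0.0307 for each), so their average of 0.65 and 0.46 describes neither level. Of the 13 tested basal (myoepithelial) markers none was called, at a median of 0.18, and 4 had an unadjusted p under 0.05 in limma, all positive, against 13.9% of all genes. With 1.07% of all genes called, 0 of 13 is near the background. The keratin Krt14, which defines the basal layer, did not pass the filter on low signal.

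Summed over its 25 tested members, the luminal signal was 6967 to 10453 (median 7644) without estrogen and 8461 to 13995 (median 12626) with it, and no member was at the floor in every animal. In whole glands a change in the share of a cell type and a change in its RNA per cell cannot be told apart. With the luminal score added to the fit as a covariate, 10 probe sets were called, 6 of them among the 178; the score itself moved with estrogen.

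Estrogen also raised genes outside these lists. Gpx3, a secreted glutathione peroxidase, had signals of 1684 to 3953 (median 2820) without estrogen and 3506 to 7877 (median 5998) with it. It overlapped only between P 1 and E+P 2, and the log2 difference was 1.11 ± 0.14 (adjusted p = 0.00153). A much dimmer probe set of Gpx3 gave -0.34 (adjusted p = 0.652). Gpx8, a peroxidase of the endoplasmic reticulum, went the other way, from a median of 2336 (1614 to 2988) to 1319 (972 to 1992), a log2 difference of -0.84 ± 0.12 (adjusted p = 0.00153). They were the only called members among 24 tested peroxidase and redox genes, whose median was -0.026.

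Egr2, a zinc finger factor of the immediate early class, ranged from 61.2 to 109 (median 78.8) without estrogen and from 112 to 439 (median 208) with it. The groups did not overlap (1.43 ± 0.23, adjusted p = 0.0094). It was the only called gene among 22 tested immediate early genes (median 0.19), beside Egr1 with 0.68 (adjusted p = 0.0575) and Egr3 with 0.92 (adjusted p = 0.162).

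Igfbp2, which binds insulin-like growth factors, rose by 1.19 ± 0.20 (adjusted p = 0.014) and was the only called member of 23 tested growth factor ligands, receptors and binding proteins. Its signals were 33.9 to 66.5 without estrogen and 56.4 to 223 with it. Met, the receptor of hepatocyte growth factor, was at -0.43 (adjusted p = 0.145) and Tgfa, a ligand of the epidermal growth factor receptor, at 0.98 (adjusted p = 0.186).

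Among milk and secretory genes, of which 12 were tested, 1 rose and 1 fell. Wfdc18, a secreted protein with a protease inhibitor fold, had a median of 278 (163 to 501) without estrogen and 960 (215 to 2669) with it. Its log2 difference was 1.38 ± 0.26 (adjusted p = 0.0193), made up of 0.64 without and 2.12 with progesterone. Btn1a1, butyrophilin of the milk fat globule, fell from a median of 178 (113 to 552) to 94.2 (25.5 to 147), by 1.43 ± 0.32 (adjusted p = 0.0462). The casein Csn2 did not pass the filter.

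The remaining leading rises were Plekhg2 (1.68 ± 0.27, adjusted p = 0.00765), Jpt2 (1.5 ± 0.24, adjusted p = 0.00602), Fam160a1 (1.72) and Cd209b, a C-type lectin (1.61). Jpt2 did not overlap between the groups, at 45 to 236 without and 269 to 433 with estrogen, but another, brighter probe set of Jpt2 gave -0.0051 (adjusted p = 0.995). Cd209b and Fam160a1 kept their calls in 3 and 7 of the 17 fits that each left out 1 animal.

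Cargo receptor Tmed3 of the secretory pathway rose by 0.61 (adjusted p = 0.01), alone among 32 tested folding and secretion genes. The ribosomal protein Rpl13a rose by 0.72 (adjusted p = 0.0199), alone among 37 tested ribosomal protein genes, of which 31 had a positive difference (median 0.17).

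Of 25 tested endothelial genes 5 were called, all lower, with a list median of -0.25. Cd93, a surface receptor of endothelial cells, had signals of 325 to 623 (median 395) without estrogen and 176 to 321 (median 246) with it. It was lower in all 9 animals with estrogen than in all 8 without (log2 difference -0.81 ± 0.12, adjusted p = 0.00602). Another, slightly brighter probe set of Cd93 gave -0.44 and was not called (adjusted p = 0.356). Cdh5, the cadherin of endothelial junctions, went from a median of 722 (420 to 927) to 423 (282 to 486), a difference of -0.76 ± 0.14 (adjusted p = 0.0199).

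Rbp7, a retinol-binding protein found in the endothelium of fat, fell from a median of 971 (634 to 1457) to 370 (150 to 1168), by 1.13 ± 0.16 (adjusted p = 0.00216). E 1, E 3 and E 4 overlapped with the animals without estrogen, while the 5 E+P animals, at 150 to 370, lay below all of them. Bcl6b, a transcriptional repressor of endothelium, was at -0.82 and the junction protein Cldn5 at -0.63 (adjusted p = 0.0293 and 0.0462). The difference of Cldn5 was -1.2 without and -0.071 with progesterone, though its interaction was not called. The brightest probe set of Bcl6b gave -0.25 (adjusted p = 0.862), and a further probe set of it gave 0.34. Bcl6b kept its call in 10 of the 17 fits without 1 animal. Members that did not pass included Pecam1 (0.067, adjusted p = 0.931) and Kdr, a receptor of vascular endothelial growth factor (-0.22, adjusted p = 0.667).

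The summed signal of the 25 endothelial genes was 6946 to 10466 without estrogen and 5308 to 7686 with it, so the groups overlapped, and no member was at the floor throughout. The medians of the luminal and endothelial lists kept their signs under median scaling (0.39 and -0.29) and quantile normalization (0.46 and -0.25). Under each, 4 luminal and 5 endothelial genes were called. The counts of calls were lower in other fits. With no filter on low signal, 2 luminal, 3 endothelial, 2 mitosis and 1 replication gene were called. Without V 3 the counts were 3 luminal, 2 endothelial, 6 mitosis and 2 replication genes.

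Of 21 tested white adipocyte markers 1 was called, lower with estrogen, the list median was -0.24, and 18 of the 21 had a negative difference. Lpl, the lipase that releases fatty acids from circulating fat, had signals of 5314 to 7830 (median 6265) without and 3350 to 5608 (median 4262) with estrogen. E 1 alone reached into the range without estrogen (-0.56 ± 0.11, adjusted p = 0.0211), and a dimmer probe set of Lpl gave -0.099 (adjusted p = 0.839). The adipokine Adipoq was at -0.37 (adjusted p = 0.103) and the fatty acid carrier Fabp4 at -0.23 (adjusted p = 0.214). Summed over the list, signals were 54145 to 70690 without estrogen and 43139 to 60877 with it.

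Cidea, a lipid droplet protein abundant in brown fat, was the only called member of 5 tested brown adipocyte genes, with 1 probe set each. Its signals were 216 to 719 (median 415) without estrogen and 140 to 418 (median 188) with it (-0.96 ± 0.18, adjusted p = 0.0199), and the difference was -1.64 without and -0.28 with progesterone. For Cox8b of the same list, the probe set used gave -0.55 (adjusted p = 0.0525). A brighter probe set of Cox8b was called (-0.67, adjusted p = 0.0171). Ucp1, the uncoupling protein of brown fat, differed by level. Its signals were 170 to 279 in V, 13.9 to 32.3 in E, 42.4 to 145 in P and 44.7 to 446 in E+P. E lay wholly below V, whereas P and E+P overlapped. Its difference was -3.22 without progesterone and 1.05 with it, and the interaction was called (4.26, adjusted p = 0.0307), so that the average of -1.09 (adjusted p = 0.191) holds for neither.

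Timp4, an inhibitor of metalloproteinases, had signals of 944 to 2294 (median 1319) without estrogen and 279 to 1011 (median 635) with it. The animal E 1 alone exceeded the lowest animal without estrogen (-1.23 ± 0.18, adjusted p = 0.00216), and the fall was -0.56 without and -1.91 with progesterone. Timp3 of the same family fell by 0.47 (adjusted p = 0.0223), while Timp1 was at 0.45 (adjusted p = 0.323) and Timp2 at 0.041 (adjusted p = 0.959). The difference of Timp3 was -0.076 without and -0.87 with progesterone, though its interaction was not called. No protease among the 15 tested genes of this list was called, and Mmp12, the macrophage elastase, varied from 51.5 to 5644 among the animals without estrogen.

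The other leading falls were Dcdc2a, a doublecortin-domain protein (-1.48), Anxa8, an annexin (-1.33), Ephx2, the soluble epoxide hydrolase (-1.08 ± 0.21, adjusted p = 0.0232), Ifi27l2a, an interferon-induced gene (-1.01 ± 0.18, adjusted p = 0.0169), Gbp6, an interferon-induced GTPase (-0.98), Penk, the precursor of enkephalins (-0.93), and Ces1f, a carboxylesterase (-0.88). Dcdc2a, Btn1a1 and Anxa8 kept their calls in 2, 3 and 6 of the 17 fits without 1 animal, while Ifi27l2a and Gbp6 kept theirs in all 17. The probe set of Penk carries a suffix that marks sequences shared with other transcripts.

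**Figure D2:**
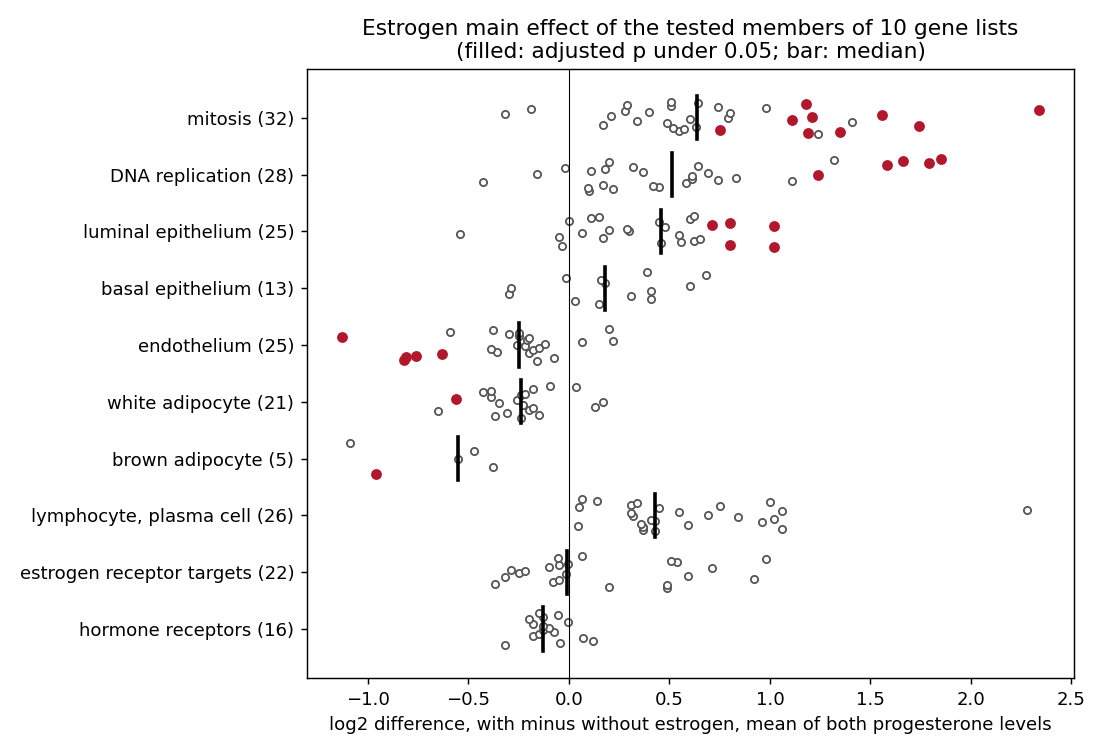
Log2 difference with minus without estrogen, averaged over both progesterone levels, for each tested member of 10 gene lists (number of members in brackets), with called members filled and the list median as a bar. The called members lie to the right in the mitosis, replication and luminal lists and to the left in the endothelial and adipocyte lists, and none was called among lymphocyte markers, estrogen receptor targets or hormone receptors.

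None of 22 tested genes taken as estrogen receptor targets was called in limma, and 10 had an unadjusted p under 0.05, 7 of them positive. Over all genes 1.07% were called, so 0 of 22 is near the background, and 13.9% had an unadjusted p under 0.05. The median of the list was -0.0077, against 0.01 over all genes. Myc, a driver of growth, had signals of 34.5 to 88.2 without and 48.3 to 156 with estrogen (0.71 ± 0.22, adjusted p = 0.164), and Ccnd1, cyclin D1, was at 0.20 (adjusted p = 0.625). Xbp1, a factor of the secretory pathway, had a difference of 0.065 (adjusted p = 0.873). Pgr, the progesterone receptor, and Greb1, both textbook targets, did not pass the filter on low signal, and Areg, the ligand that relays estrogen signals to neighbouring cells, had no probe set under its name.

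The receptor Esr1 itself was at 553 to 1003 (median 790) without estrogen and 502 to 918 (median 617) with it. The groups overlapped and the difference of -0.32 ± 0.13 did not pass (adjusted p = 0.309). None of the 16 tested hormone receptor and coregulator genes was called, with 1 unadjusted p under 0.05, that of Esr1, and 14 had a negative difference (median -0.13). Both counts are at or below the shares over all genes, 1.07% called and 13.9% unadjusted.

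Genes known to respond to progesterone gave no call among 10 tested (median 0.21, 2 unadjusted p under 0.05 in limma), which is near the shares over all genes. Wnt4, a paracrine signal of the luminal cells, was at 0.31 (adjusted p = 0.452), and Tnfsf11, the ligand RANKL, did not pass the filter. Fkbp5, which also responds to glucocorticoids, was at 0.91 (adjusted p = 0.0691), with 1.97 for E minus V and -0.16 for E+P minus P. Zbtb16, another gene of both lists, had 2.05 without progesterone and -1.61 with it, and its interaction was called (-3.66, adjusted p = 0.00217). In that contrast V and E lacked progesterone while P and E+P carried it.

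Across all tested probe sets, 17 were called for the interaction (0.079%). The estrogen effect alone called 47 probe sets without progesterone (0.219%) and 76 with it (0.353%). No animal is shared between these contrasts, but they share the spread estimated in the fit. Of the 47, 31 had the same sign with progesterone, and 14 also had an unadjusted p under 0.05 there, a level that 12% of all tested probe sets reached. Of the 76, 51 had the same sign without progesterone, and 22 also had an unadjusted p under 0.05 there, against 12.5% of all. Over all tested probe sets the signs were the same for 50.2%, with a Pearson correlation of -0.085 across probe sets, which are not independent of each other.

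All 178 called probe sets had the same sign at both levels, which a call on the average favours, and 138 had an unadjusted p under 0.05 at both. Only 24 of them were also called for E minus V, 40 for E+P minus P and 3 for both, so 117 were called in the average alone. The difference was larger with progesterone in 62 of the 94 rises and in 37 of the 84 falls. None of the 178 was called in the interaction, where their smallest adjusted p was 0.126.

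**Figure D3:**
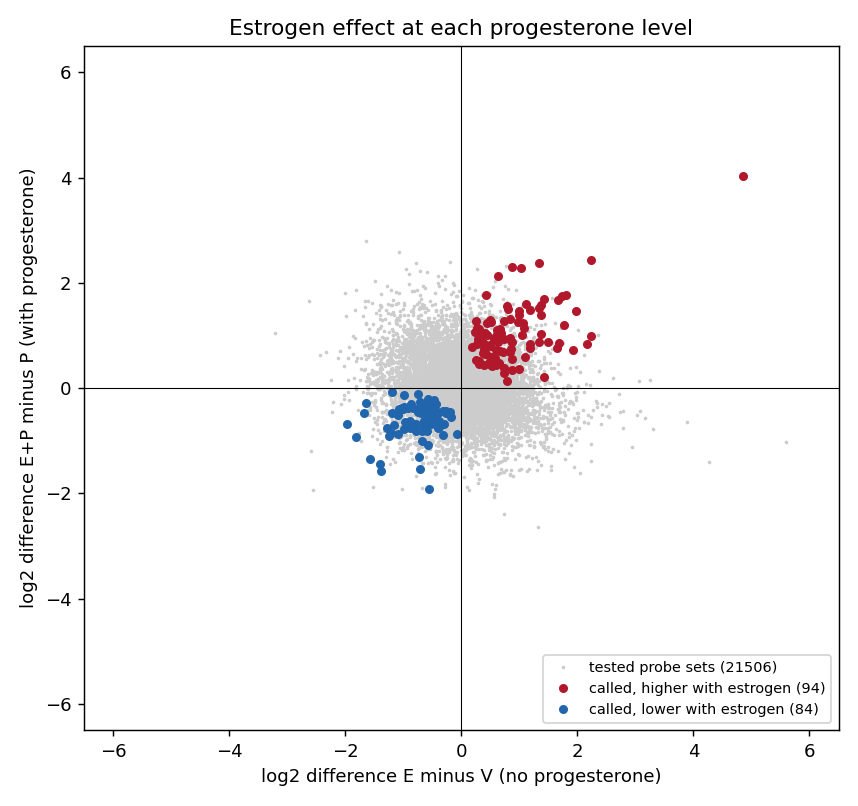
Log2 difference E minus V (horizontal) against E+P minus P (vertical) for the 21506 tested probe sets (grey) and the 178 called in the average of both (red higher, blue lower). The called probe sets lie in the upper right and lower left corners, and the grey cloud shows no common slope.

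Lymphocyte and plasma cell markers varied strongly between animals within V, P and E+P, whereas all 4 E animals were high. Their score was 0.52 to 1.68 in E, -1.28 to 0.91 in P and -1.34 to 0.81 in E+P. Of the 26 tested none was called in limma, 2 had an unadjusted p under 0.05 and all 26 had a positive difference (median 0.43), with a median of 1.53 without and -0.55 with progesterone. Their summed signal was 1846 to 9861 without estrogen and 1811 to 16512 with it. The vehicle animal V 4 stood apart, with a score of 1.4 (mean log2 deviation) against -1.34 to -1.25 in the other 3 vehicle animals. With this score as a covariate 89 probe sets were called for the average, 0 for E minus V (1892 at an unadjusted p under 0.05 in limma) and 128 for E+P minus P. Without V 4, 219 were called, and without V 4 and E 1, the animal with the highest muscle score, 162.

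RNA quality was compared through the 3′ to 5′ signal ratio of the Gapdh control probe sets, which rises as RNA degrades. Its log2 value was 0.87 ± 0.38 (SD, n = 9) with estrogen and 1.12 ± 0.39 (n = 8) without, a difference of -0.28 when taken within progesterone levels (p = 0.166, two-sided exact permutation test over 8820 assignments). The beta-actin ratio differed by -0.27 (p = 0.0412, same exact test). Its part in the called differences was not tested, and with the Gapdh ratio as a covariate 148 probe sets were called, 109 of them among the 178.

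**Figure D4:**
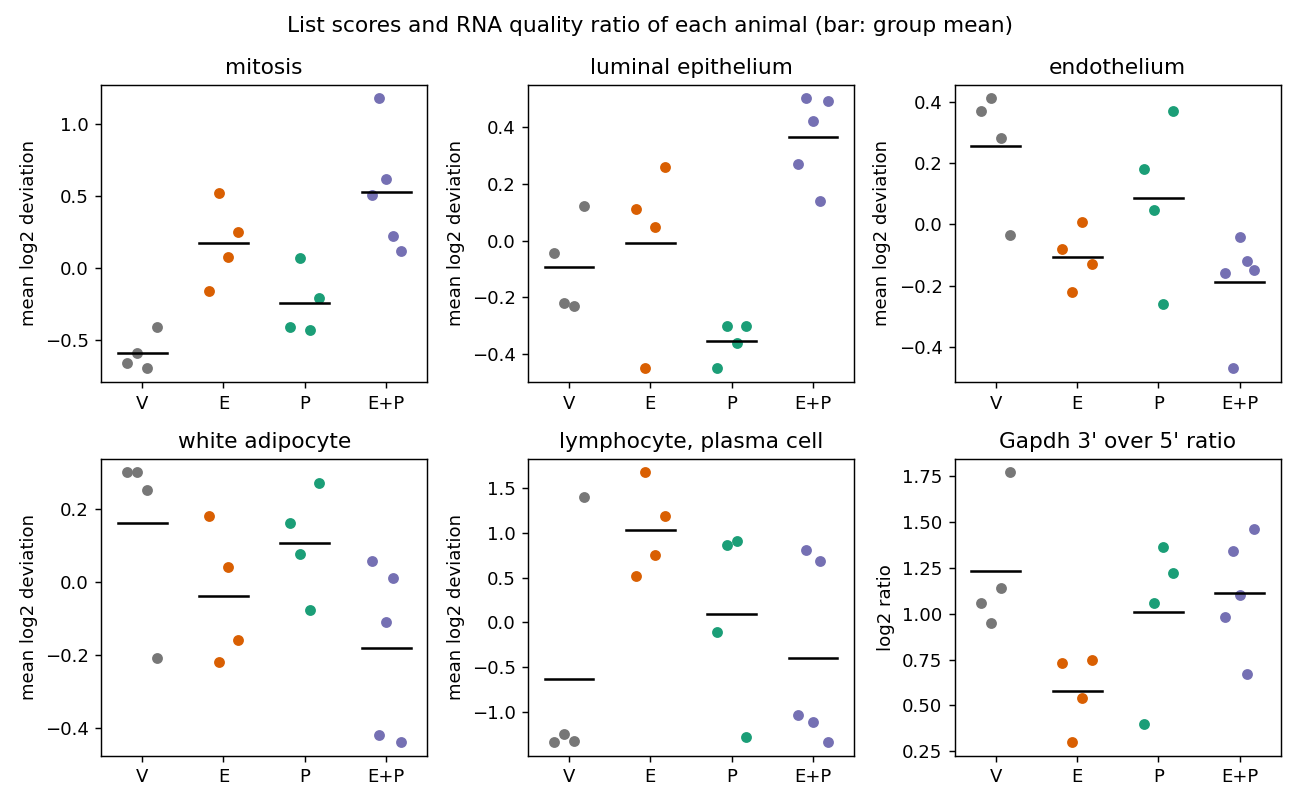
Mean log2 deviation of the members of 5 gene lists, and the log2 Gapdh 3′ to 5′ ratio, in each animal, with the group mean as a bar. Mitosis scores reach -0.16 to 1.18 with estrogen and -0.70 to 0.067 without, and the lymphocyte score of V 4 lies at 1.4, far from the other vehicle animals.

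The number of calls depended on single animals. It fell to 94, 81 and 54 without V 1, V 2 and V 3, to 93, 106 and 111 without E 2, E 3 and E 4, to 66 without P 4, and to 101 and 114 without E+P 2 and E+P 5. Of the 40 named genes that were called, 21 kept the call without any single animal. Median scaling of the arrays left 189 calls but turned the split to 74 higher and 115 lower, and testing all probe sets with no filter on low signal left 44, 28 higher and 16 lower. Among the members of all lists 36 of 645 were called, and 20 without V 3.

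**Figure D5:**
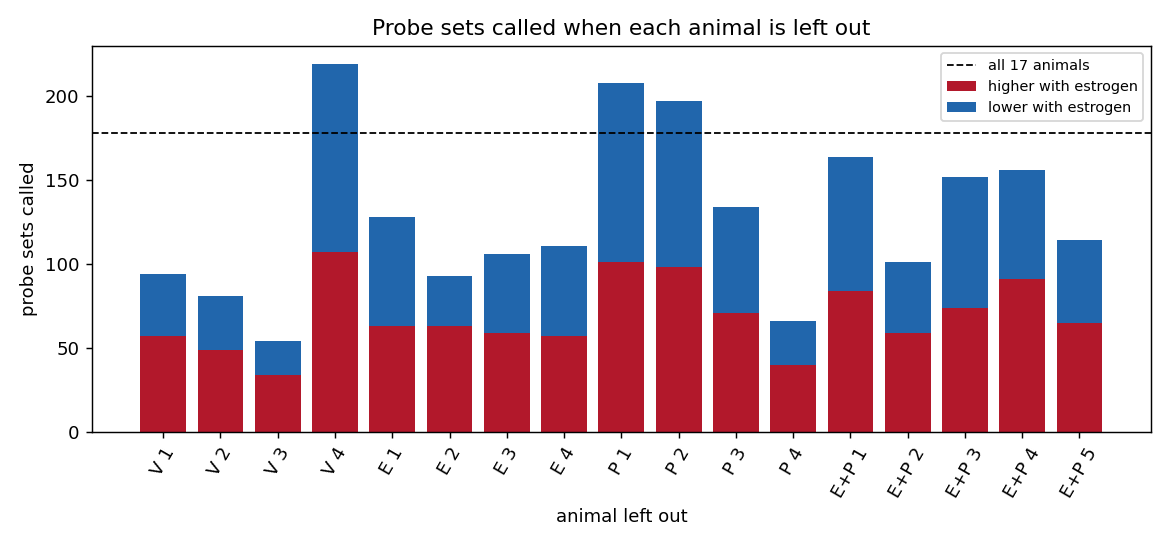
Probe sets called (higher in red, lower in blue, bars from 0) when each animal in turn is left out, with the count from all 17 animals as a dashed line at 178. The counts run from 54 without V 3 to 219 without V 4.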

How the data were processed

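The deposited values are signal intensities on a linear scale. The authors used MAS5 to make them, per the submitters' processing notes, which as read here name neither its version nor its settings. Biotinylated RNA was made from 2 µg total RNA, per the labels' protocols. The 3 arrays of 1 animal were joined by treatment and replicate number, the sole link in the labels. Each array was scaled to a common 2% trimmed mean of its type, floored at the 25th percentile and log2-transformed, and probe sets above the 50th percentile in at least 4 of 17 animals were tested. limma 3.58.1 (R 4.3.3) fitted a mean for every group and type, with empirical Bayes and an intensity trend, and p-values were adjusted over all types. They measure the spread between animals, whose number limits the precision.

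Of 36899 probe sets, 198 were controls, 29131 had 1 symbol in the platform annotation, 724 several and 6846 none; only the first kind was named. A gene was represented by type A before B before C, then by a plain suffix, then by the highest mean. The rule named the 12 strongest rises and the 12 strongest falls that were called with 1 sign at both levels, the 4 best members by adjusted p from any list holding a called gene, and Esr1, Pgr, Areg, Greb1, Tnfsf11, Wnt4, Ccnd1, Myc, Xbp1, Mki67, Krt8, Krt18, Krt14, Csn2, Adipoq and Ucp1. Other members were named after their values were seen. Members and lists were chosen with earlier results of these data known. The procedure was tested on simulated data. Alternatives changed scaling, floor, filter, model, covariates and probe set, or left out 1 animal.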

Additional observations from a re-analysis of the deposited data

Results flagged for a closer look

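In groups of 4 or 5 animals, 26 of 348 group values examined had 1 animal far from the others by Dixon's criterion, which chance gives in about 1 in 20 groups. V 4 gave 6 of these: a lymphocyte score of 1.4, a white adipocyte score of -0.21 (others 0.25 to 0.30), and log2 levels of 10.78 for Glycam1 (the other 3 at the floor of 3.80), 13.02 for Adipoq, 11.83 for Rpl8 and 9.11 for Esr1 (others 9.77 to 9.91). The other vehicle animals gave Fabp4 at 8.66 and Ucp1 at 8.13 in V 2, and Prdx4 at 6.98 in V 3.

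Among estrogen animals, E 1 had Tk1 at 4.87 (others 6.85 to 7.02), E 2 had Lcn2 at 10.31, Adipoq at 12.64 and Cdh5 at 8.63, and E 4 had Gbp6 at 9.07 and Penk at 7.60. Among progesterone animals, P 1 had Lcn2 at 7.95 and Prdx4 at 7.23, P 2 had a brown adipocyte score of -0.26, Pmp22 at 9.22, Gclm at 6.81 and Rpl8 at 12.03, and P 3 had Sec61a1 at 8.72. Among E+P animals, E+P 2 had an endothelial score of -0.47 and Anxa8 at 3.80, its floor, E+P 4 a basal score of -0.01 (others 0.31 to 0.43), and E+P 5 Cox8b at 6.84.

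The effect of estrogen on Ucp1 differed between the levels of progesterone, with a difference of effects of 4.26 (log2, limma interaction).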

How the results depend on the processing

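The counts of calls rested on the processing more than the directions did. With no filter on low signal, 44 probe sets were called for the average, 8 for estrogen without progesterone, 36 with it, 11 for the interaction and 14 list members. The average called 115 with estrogen as the only factor and 90 without the intensity trend, which left 41 for estrogen with progesterone. With array weights, estrogen called 226 without and 47 with progesterone, and the interaction 26. With the lymphocyte score as a covariate the counts were 89 for the average, 0 without progesterone (1892 at an unadjusted p under 0.05 in limma), 128 with it and 4 for the interaction. With the luminal score they were 10 for the average, 0 with progesterone (1551 unadjusted in limma) and 2 for the interaction. The Gapdh ratio as a covariate left 18 without progesterone and 3 for the interaction, and the muscle score 47 with progesterone. Leaving out each animal gave 54 to 219 for the average, 7 to 114 without and 21 to 95 with progesterone, 5 to 27 for the interaction, 20 to 44 list members, and a Gapdh difference of -0.38 to -0.19. The beta-actin ratio gave -0.27, past the threshold. Taking the probe set with the highest mean turned Rrm1 to -0.12 and Jpt2 to -0.0051, ended the calls of Tk1 (0.67), Mcm5 (0.22), Cd93 (-0.44) and Bcl6b (-0.25), and made Cox8b (-0.67) a call. The cause of these changes was not tested. Over 24 pairs of animals with the same replicate number the median correlation of deviations was 0.027 (-0.11 to 0.093). It was -0.0062 over 84 pairs with different numbers. Pairing by number was not tested beyond these values. With the number as a replicate block 111 were called for the average, 32 with progesterone and 9 for the interaction. Of the 39 called genes with another tested probe set, 14 had one of opposite sign and 5 another called. The reason for the opposite signs was not tested. At the floor lay an animal without estrogen in 13 called rises and an animal with estrogen in 3 called falls. The counts for the separate levels and the interaction, and the fit without V 4 and E 1, were added after the data were seen.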

Other observations

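The largest effect of estrogen was on a type A probe set without a gene symbol in the annotation used here, 99915_at. Its deposited signals were 8.3, 15.3, 10.1 and 53.5 in V, 16.1, 9.8, 5.6 and 12.5 in P, 635.6, 359, 733.2 and 667.1 in E, and 121.6, 781.9, 112.6, 96.3 and 715.7 in E+P. Every animal with estrogen lay above every animal without. The log2 difference was 4.45 ± 0.42 (limma, adjusted p = 2.55e-05), with 4.86 without and 4.03 with progesterone, and 5 of the 8 animals without estrogen were at the floor, so its size depends on where the floor is set. In the 3 epithelium-free fat pads of animals given both hormones the signals were 1, 6.2 and 1.4, all below the lowest E+P gland. It was singled out after its values were seen.

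Among called genes outside the lists, Slco2a1, a prostaglandin transporter, had 0.89 ± 0.11 (adjusted p = 0.000545) and no overlap between the groups, and Slc5a5, the iodide transporter, had 1.21 ± 0.24 (adjusted p = 0.0212). Klf5, a transcription factor of proliferating epithelia, had 0.89 ± 0.16 (adjusted p = 0.0193) with 79.4 as the lowest signal with estrogen and 77.7 as the highest without. The clock factor Arntl was at 0.85 (adjusted p = 0.0812) and Dbp at -0.55 (adjusted p = 0.138), while none of 19 tested clock genes was called in limma and 7 had an unadjusted p under 0.05, against 1.07% and 13.9% of all genes. The interferon-related falls Ifi27l2a and Gbp6 stood beside H2-K1 (-0.36) and H2-D1 (-0.33), histocompatibility genes, whereas none of the 18 tested interferon response genes was called (median -0.13, 3 unadjusted p under 0.05 in limma, near the share over all genes). The probe sets of H2-K1 and H2-D1 carry the suffix that marks sequences shared with other transcripts. The genes named in these observations were singled out after their values were seen.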
